A study of Mus musculus with 15 samples.

Results

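Adult mouse liver was compared with embryonic liver at E12.5 (days of gestation), the last and the first stage of a developmental course. The comparison used 6 of the 15 arrays of the series, 3 of adult liver and 3 of E12.5 liver, and the arrays were chosen by their titles alone. All livers came from the C57BL/6 inbred strain, with no transgene or treatment named. Adult livers were taken at 8 weeks of age, and the other stages were E14.5, E17.5 and neonatal, with 3 arrays each. The labels give neither the sex of the mice nor the number of livers behind each array, so p-values measure the spread between arrays. Total RNA was depleted of ribosomal RNA, amplified with random primers along whole transcripts, labelled with 1 dye (Cy3) and hybridised to Agilent arrays with probes for mRNAs and for long non-coding RNAs.

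At mid-gestation the liver is the main site of blood formation, and most of its cells belong to the blood lineage, above all red cell precursors, while the hepatoblasts that will form hepatocytes and bile duct cells divide among them. Blood formation moves to the bone marrow around birth, and the adult liver consists mostly of hepatocytes that handle glucose, lipids, cholesterol and foreign compounds and rarely divide. Whole liver was measured here, so fewer cells of a type and less RNA per cell cannot be told apart in any value below.

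Levels are given as the log2 of the background-subtracted probe signal minus the 75th percentile of its own array. A level of 0 is therefore the 75th percentile, and a difference of 1 is a 2-fold change. Of 59705 features (1 probe per named gene, otherwise 1 per probe), 34875 were tested, because the scanner software marked their probe as well above background on every adult array or on every E12.5 array. A feature was called when its adjusted p was below 0.05 in limma, which was fitted over all 15 arrays with Benjamini-Hochberg adjustment over all features tested. Most probes carry only an identifier of the array's maker, and 74 of the tested features could be given a gene symbol. None of the 8 hepatocyte markers or 5 hepatoblast markers drawn up for a check of the tissue (among them Alb and Afp) was named on the array, so the label could not be set against them. Of 7 red cell precursor markers, only Tfrc was named.

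The 2 stages lay on different slides. The E12.5 arrays were on 1 slide with E14.5 and 2 of the E17.5 arrays, and the adult arrays were on the other with the neonatal arrays and E17.5 replicate 3. No slide held both stages, so no comparison within a slide was possible, and slide and stage can be told apart only through the E17.5 arrays. With the slide as a fixed block, the slide effect is thus E17.5 replicate 3 set against the mean of E17.5 replicates 1 and 2. Negative-control spots well above background made up 4.08% to 6.92% on the E12.5 arrays and 8.0% to 9.58% on the adult arrays. On each E12.5 array between 12853 and 15983 features shared a single lowest value set by the scanner software. Adult replicate 2 had 10402 such features, and adult replicates 1 and 3 had none that shared it. The software had detrended adult replicates 1 and 3 multiplicatively, but not adult replicate 2 or any E12.5 array. The part of this difference in processing was not tested. E17.5 replicate 1 stood apart with 80.9% of probes and 55.8% of negative-control spots well above background. It enters the estimate of the spread, the slide effect and the E17.5 means. Pearson's r over features was 0.941 to 0.970 between E12.5 arrays, 0.967 to 0.985 between adult arrays and 0.742 to 0.769 between the stages.

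Between E12.5 and adult, 18612 of 34875 features were called, 53.4%. Higher levels in adult liver were called for 9605 features (27.5%) and lower levels for 9007 (25.8%). Of the features tested, 45.2% were both called and at least 2-fold apart, 8445 higher and 7309 lower in adult. The 3 adult arrays lay all above or all below the 3 E12.5 arrays for 60.0% of features. Among features well above background on all 6 arrays, changes of at least 32-fold were called for 215 that were higher and 140 that were lower in adult.

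**Figure D1:**
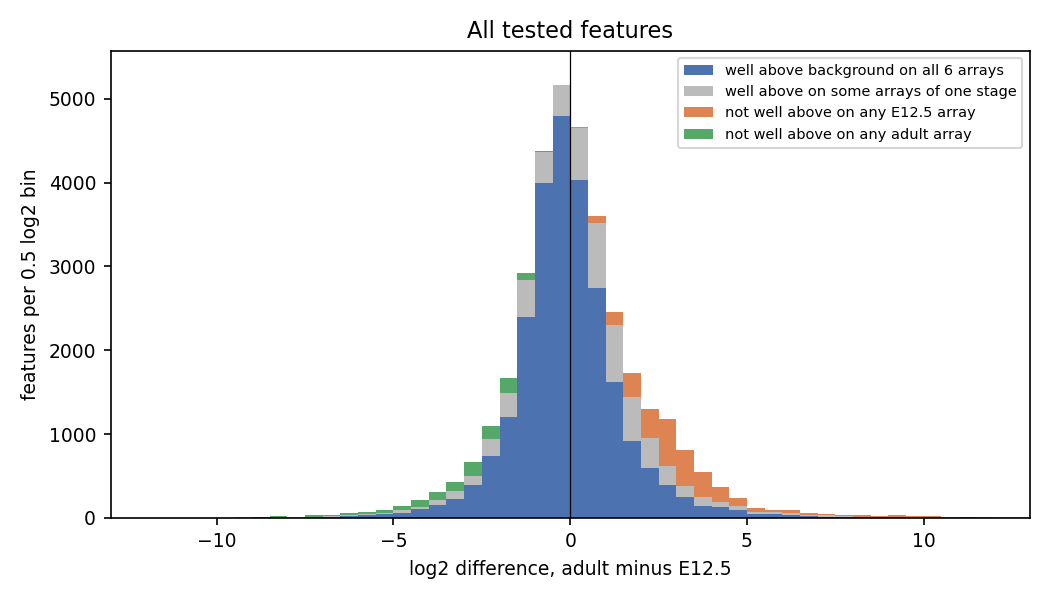
The histogram shows the log2 difference (adult minus E12.5, horizontal axis) of the 34875 tested features in bins of 0.5, coloured by the arrays on which the probe was well above background. The right flank holds the 2746 features dim on every E12.5 array, and the left flank the 1102 dim on every adult array.

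The balance between the directions depended on which features were tested. A total of 2746 features were well above background on all 3 adult arrays and on none of the E12.5 arrays, against 1102 with the opposite pattern. Over the 25349 features well above background on all 6 arrays, 21.3% were called higher and 27.7% lower in adult liver. Higher calls made up 51.6% of all calls, but 47.5% with quantile normalization, 46.3% with scaling to array medians and 42.0% in the authors' value table, so the even split leaned the other way there. With the slide as a block, 11910 features were called. Of the 9605 features called higher, 4650 (48.4%) were then still called in that direction, and of the 9007 called lower, 5023 (55.8%). Without E17.5 replicate 1 the block left 10014 calls. The value with this block is given below where it ended the call of a named feature or, for features well above background on all 6 arrays, moved the fold by over 1.5 times. Normexp background correction, which adds an offset of 50 to each spot signal, moved 55 of the 85 called features named below by over 1.5 times, each toward 0. Of these, 26 were among the 56 that were well above background on all 6 arrays, and their values with this correction are given beside the fold. The lower bounds given for features dim at a stage rest on signals without that offset, and are not minima under that correction. With it Amy2a5, H2ac23 and Csprs were at 4.21, -2.39 and 1.70, smaller changes than their bounds of 5.38, 4.24 and 2.59 log2 units. Vmn1r187 and Vmn1r157 were at -1.34 and 1.24, against bounds of 2.92 and 1.81. MM9LINCRNAEXON11901- and MM9LINCRNAEXON11969- were at -2.86 and -2.92, against 4.88 and 4.75. For uc.468- and AV008781 the values were -1.83 and -1.61, against 3.23 and 2.94. Vmn1r111, at 0.76, stayed above its bound of 0.73.

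Iron uptake and red cells were represented by a single measured gene. Tfrc encodes the transferrin receptor, which takes iron into cells and is abundant on red cell precursors. Its level was 9.50, 8.62 and 8.53 on the E12.5 arrays and 5.81, 5.62 and 5.06 on the adult arrays. Every adult array was far below every E12.5 array, and Tfrc was the gene with the largest fall among named genes detected on all 6 arrays. The difference was -3.39 ± 0.34 (log2, SE from limma, n = 3 arrays per stage), 10.5-fold lower in adult, with an adjusted p of 1.37e-06. With the slide as a block the difference was -4.42 (adjusted p = 2.92e-05 in limma). The other 11 genes of the iron and red cell list were not named on the array.

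Of the growth machinery list, 3 of 10 genes were measured, and 2 of them fell (median difference -0.89), against 25.8% of all features called lower and a median of 0.01. Tuba1b, an alpha tubulin of the microtubules that also build the mitotic spindle, had levels of 9.97, 9.15 and 9.13 at E12.5 and 7.26, 6.73 and 7.04 in adult. The ranges were well apart, and the difference was -2.40 ± 0.29 (5.30-fold lower, limma adjusted p = 9.61e-06, and -3.12 with the slide as a block). Nono, an RNA-binding protein of the nucleus, had levels from 5.46 to 6.17 at E12.5 and from 4.83 to 5.13 in adult, 1.85-fold lower (limma adjusted p = 0.0133). Its call was lost without E12.5 replicate 3 (adjusted p = 0.0565), and with the slide as a block the difference was -1.78. Hsp90ab1, a cytosolic chaperone, had levels from 5.87 to 7.10 at E12.5 and from 5.53 to 6.38 in adult, and its difference of -0.58 did not pass the test (limma adjusted p = 0.157). Hsp90ab1 was called once E12.5 replicate 1, its lowest E12.5 array, was left out (difference -0.98, adjusted p = 0.0112). None of the proliferation markers was named on the array.

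The core histones moved in opposite directions. Core histones wrap DNA into nucleosomes, and most of their genes are transcribed mainly while cells copy DNA. Of the 4 measured histone genes, all for H2A proteins, 3 fell and 1 rose, against 25.8% and 27.5% of all features. Their median difference was -1.87, against 0.01 over all features tested. The genes H2ac18 and H2ac19 encode the same kind of core H2A and are near-identical neighbours on chromosome 3, so a probe for either could also bind transcripts of the other, and their split is uncertain. H2ac18 had levels of 3.23, 2.45 and 2.46 at E12.5 and 7.77, 7.49 and 7.68 in adult. All adult arrays were several log2 units above the E12.5 arrays, and the difference of 4.93 ± 0.24 was 30.6-fold (limma adjusted p = 7.33e-10). H2ac19 went the other way, with levels of 8.93, 8.62 and 8.13 at E12.5 and 6.45, 6.37 and 6.45 in adult. The 3 adult arrays were almost equal and all below E12.5, and the difference of -2.14 ± 0.32 was 4.39-fold (limma adjusted p = 6.74e-05, and -3.19 with the slide as a block). H2ac23 had levels of 1.63, 1.26 and -0.25 at E12.5 and was not well above background on any adult array, where its levels were -3.11, -4.33 and -4.02. With the adult arrays at their detection limits, H2ac23 was at least 18.9-fold lower in adult (limma adjusted p = 6.74e-07). A bound of this kind sets the mean of the brighter stage against, on each dim array, the higher of the dim probe's own level and the lowest level among probes well above background. H2al2b, an H2A variant known from testis, fell from between -0.64 and 0.32 to between -2.20 and -1.42, a difference of -1.60 ± 0.31 (limma adjusted p = 5.85e-04, and -0.87 with normexp correction) that was not called with the slide as a block (-1.16, adjusted p = 0.113).

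The start regions of the 3 core H2A genes are shown because H2ac18 and H2ac19, which changed in opposite directions, carry nearly the same letters there. Each window runs from 250 bases before to 50 bases after the annotated start (RefSeq, GRCm38.p6, not the mm9 build of the array) and reads in the direction of the gene. Capitals mark CCAAT on either strand (read as ATTGG on the other), the box bound by the factor NF-Y, which no other motif searched overlapped. H2ac18 lies at chr3:96245247-96245546 on the plus strand, H2ac19 at chr3:96240325-96240624 on the minus strand, and H2ac23 at chr13:21810117-21810416 on the plus strand.
H2ac18: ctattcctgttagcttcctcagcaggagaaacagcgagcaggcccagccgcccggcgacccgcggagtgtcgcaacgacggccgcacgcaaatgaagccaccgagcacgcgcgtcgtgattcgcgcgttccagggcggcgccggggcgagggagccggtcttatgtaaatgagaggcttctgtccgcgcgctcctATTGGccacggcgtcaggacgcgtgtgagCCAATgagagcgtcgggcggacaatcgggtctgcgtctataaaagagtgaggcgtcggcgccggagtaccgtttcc
H2ac19: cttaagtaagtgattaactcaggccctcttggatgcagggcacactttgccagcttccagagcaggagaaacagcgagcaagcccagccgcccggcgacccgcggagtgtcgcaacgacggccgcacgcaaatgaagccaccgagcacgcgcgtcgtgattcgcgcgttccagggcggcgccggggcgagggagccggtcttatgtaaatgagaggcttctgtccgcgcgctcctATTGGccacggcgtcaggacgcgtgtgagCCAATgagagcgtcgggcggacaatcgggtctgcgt
H2ac23: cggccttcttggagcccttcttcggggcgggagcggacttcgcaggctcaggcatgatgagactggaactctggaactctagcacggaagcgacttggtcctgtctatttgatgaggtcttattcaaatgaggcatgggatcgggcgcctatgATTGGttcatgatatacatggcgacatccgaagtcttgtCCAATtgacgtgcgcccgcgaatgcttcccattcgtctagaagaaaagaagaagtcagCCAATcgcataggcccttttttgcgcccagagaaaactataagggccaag
The H2ac18 and H2ac19 windows shared an unbroken run of 219 identical bases, from position 42 to 260 of the first and from 82 to 300 of the second. Both carried CCAAT in 2 places inside that run, and H2ac23 carried it in 3 places. On either strand CCAAT occurred in 37.4% of all 32851 such windows, and is thus common.

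**Figure D2:**
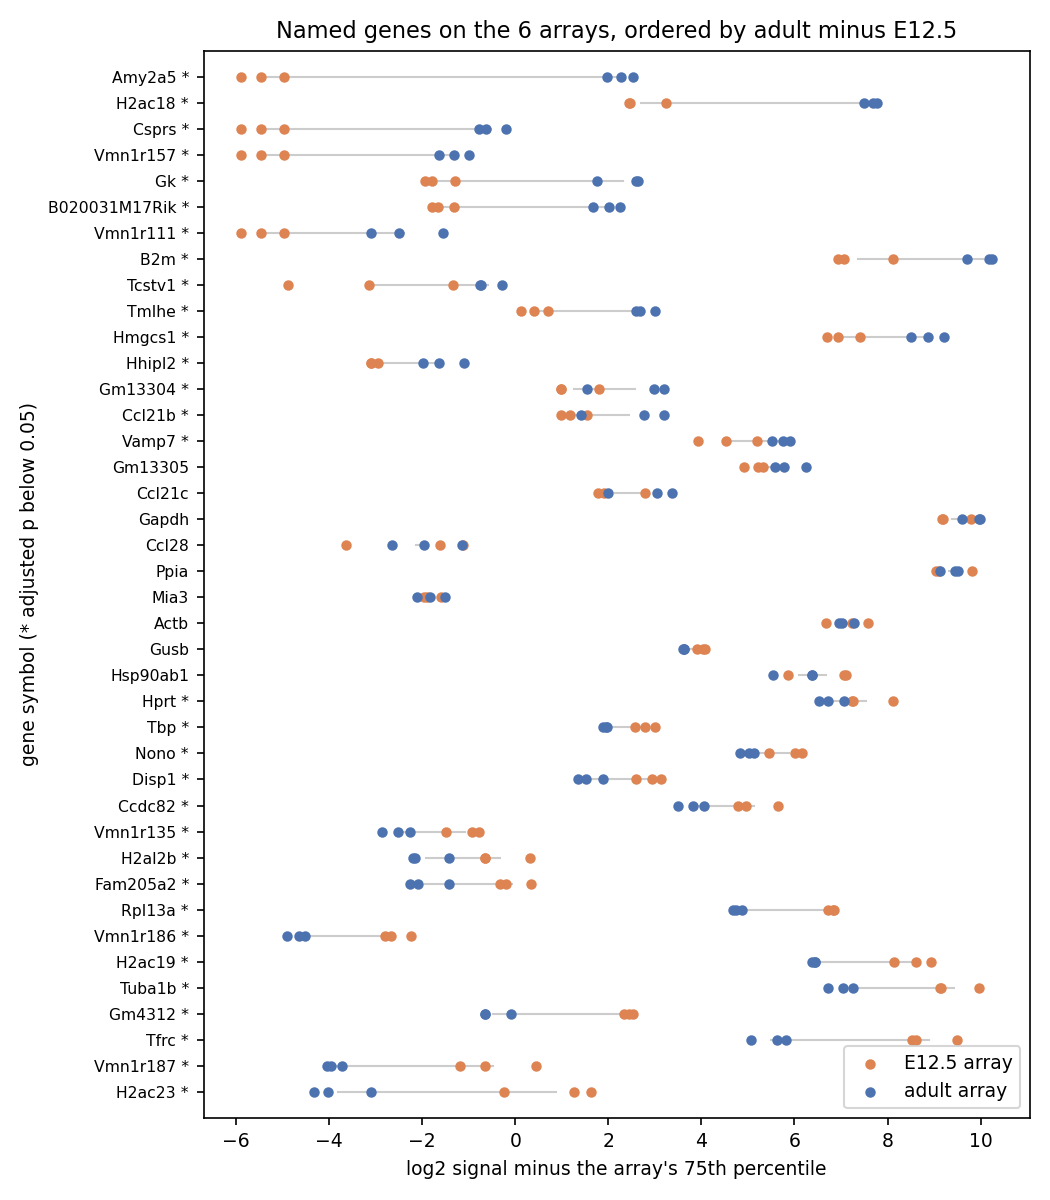
Levels (log2 signal minus the array's 75th percentile) of the named genes on the 3 E12.5 arrays and 3 adult arrays, 1 row per gene in the order of the difference, with a line between the stage means. Amy2a5 and H2ac18 lie at the top with separate ranges, and Actb, Mia3 and Ppia in the middle have overlapping ones.

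The 3 measured genes of the glycerol, lipid and cholesterol lists, Gk, Tmlhe and Hmgcs1, were called higher, against 27.5% of all features, and Hmgcs1 was not called once the slide was a block. Gk encodes glycerol kinase, which turns glycerol into glycerol phosphate for glucose and triglyceride synthesis. Its levels were -1.78, -1.95 and -1.30 at E12.5 and 2.63, 1.75 and 2.59 in adult. No E12.5 array came near an adult array, and the difference was 4.0 ± 0.29, 16-fold (limma adjusted p = 5.87e-08), or 2.86 with normexp correction. The Gk probe was printed 20 times per array, and at E12.5, where it was dim, the SD of its spots within an array reached 1.80, against at most 0.11 in adult. Tmlhe, the first enzyme of carnitine synthesis, rose from levels of 0.41, 0.71 and 0.12 to 3.01, 2.60 and 2.68. The arrays of the stages were clearly apart, and the difference was 2.35 ± 0.29, 5.10-fold (limma adjusted p = 1.14e-05, and 1.48 with the slide as a block, adjusted p = 0.0165). Gk and Tmlhe were the measured 2 of 8 genes of the glycerol and lipid list.

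Hmgcs1, the cytosolic HMG-CoA synthase that supplies the precursor of cholesterol, was the measured 1 of 13 genes of the cholesterol list. Its levels were 7.41, 6.70 and 6.93 at E12.5 and 9.22, 8.51 and 8.86 in adult. All adult arrays exceeded all E12.5 arrays, and the difference was 1.85 ± 0.28, 3.61-fold (limma adjusted p = 7.99e-05). The call was lost with the slide as a block (difference 1.23, adjusted p = 0.0521), and also when E17.5 replicate 1 was left out of that fit (1.35, adjusted p = 0.0684). Its start region, at chr13:119690101-119690400 on the plus strand (RefSeq, GRCm38.p6), is shown for its sterol element letters, CACCCCAC, searched on both strands and in capitals beside CCAAT on either strand.
Hmgcs1: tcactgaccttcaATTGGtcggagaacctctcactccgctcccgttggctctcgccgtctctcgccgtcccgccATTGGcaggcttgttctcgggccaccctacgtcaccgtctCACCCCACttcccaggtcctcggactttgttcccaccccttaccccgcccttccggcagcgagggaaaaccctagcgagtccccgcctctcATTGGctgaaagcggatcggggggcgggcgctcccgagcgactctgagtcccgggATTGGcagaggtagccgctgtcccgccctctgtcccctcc
CACCCCAC occurred once in this window, starting at position -136 from the start site, and in 2.87% of all windows of the same length. CCAAT occurred in 4 places, each time on the opposite strand. Sterol-responsive factors of the SREBP family are known to act at such elements together with NF-Y.

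B2m, the light chain of MHC class I molecules, was the measured 1 of 5 antigen presentation genes. Its levels were 8.11, 7.07 and 6.93 at E12.5 and 10.18, 9.71 and 10.25 in adult. The adult arrays were among the brightest values of any named gene, and the difference was 2.68 ± 0.32, 6.39-fold (limma adjusted p = 7.56e-06, and 2.01 with the slide as a block, adjusted p = 0.0101).

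Amy2a5 encodes a pancreatic amylase, an enzyme that digests starch, and belongs to a cluster of near-identical gene copies that its probe may not tell apart. On the E12.5 arrays its probe never rose well above background, and its levels of -4.96, -5.47 and -5.89 there were the lowest values the software assigned. The adult levels were 2.54, 1.97 and 2.28. Adult levels were at least 41.6-fold higher (limma adjusted p = 1.04e-10), a bound of 5.38 on the log2 scale, and the difference was 4.21 with normexp correction. Of 5 exocrine pancreas markers only Amy2a5 was named on the array, so the list gave no further value.

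Further named genes were chosen by the size of their change alone. Csprs was at the lowest value on every E12.5 array and at -0.63, -0.78 and -0.19 in adult, at least 6.01-fold higher (limma adjusted p = 2.10e-08). B020031M17Rik rose from between -1.79 and -1.31 to between 1.68 and 2.25, 11.9-fold (limma adjusted p = 5.13e-04, a difference of 2.65 in place of 3.57 with normexp correction, and adjusted p = 0.153 with the slide as a block and E17.5 replicate 1 left out). Tcstv1 rose 5.80-fold from levels that spread from -4.89 to -1.34 over the E12.5 arrays (limma adjusted p = 3.08e-03), and its call was lost with the slide as a block (adjusted p = 0.202). Its difference of 2.54 was 1.18 with normexp correction, 3.43 without E12.5 replicate 1 and 1.65 without E12.5 replicate 2. Hhipl2, which resembles a Hedgehog-binding protein by name, rose 2.78-fold (limma adjusted p = 2.39e-03) from levels near -3.05 that were well above background on 2 of the 3 E12.5 arrays. Its difference of 1.47 was 0.67 with normexp correction, 2.04 with the slide as a block (adjusted p = 0.0192) and 1.78 once E17.5 replicate 1 was left out as well (adjusted p = 0.0647). Among genes that fell, Gm4312 went from between 2.34 and 2.52 to between -0.66 and -0.09, 7.48-fold lower (limma adjusted p = 1.87e-07). Fam205a2 fell 3.66-fold (limma adjusted p = 2.42e-04, with a difference of -2.69 in place of -1.87 once the slide was a block and -1.06 with normexp correction). Ccdc82 fell 2.55-fold from between 4.79 and 5.65 to between 3.49 and 4.05 (limma adjusted p = 1.14e-03, with -2.02 in place of -1.35).

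Vomeronasal receptors, which detect pheromones in the nose, formed the largest gene family among the symbols, with 12 on the array and 8 tested. Of these, 2 rose and 5 fell, against 27.5% and 25.8% of all features. The E12.5 and adult means of all 8 lay below 0, and Vmn1r187 reached 0.44 on E12.5 replicate 1. Vmn1r157 and Vmn1r111 sat at the lowest assigned value on every E12.5 array and were at least 3.49-fold and 1.66-fold higher in adult. Vmn1r187 and Vmn1r186 were not well above background on any adult array and were at least 7.56-fold and 1.75-fold lower. Vmn1r135 fell from between -1.48 and -0.78 to between -2.87 and -2.27. The call of Vmn1r186 was lost with normexp correction (-0.27, limma adjusted p = 0.227). None of these 5 was still called with the slide as a block (adjusted p between 0.198 and 0.843 in limma), and Vmn1r135, at -1.49 in the reported fit and -0.64 with normexp correction, then had a difference of 0.34. The receptors are a family of similar sequences, so their probes may share transcripts.

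Of the chemokine list, 5 of 9 genes were measured, 2 rose and none fell (median difference 0.72), against 53.4% of all features called and 27.5% called higher. The median is the value of Gm13305, whose place among chemokines was not checked. Its E12.5 mean of 5.15 lay above those of Ccl21b (1.23), Gm13304 (1.26), Ccl21c (2.15) and Ccl28 (-2.13). Ccl21b, a chemokine of lymphatic vessels and lymphoid tissue, had levels of 1.54, 1.17 and 0.98 at E12.5 and 1.41, 2.76 and 3.19 in adult. Adult replicate 1 lay inside the E12.5 range, and the difference of 1.22 ± 0.38 passed the test (2.33-fold, limma adjusted p = 0.0139). Gm13304 had a closely similar pattern, from 0.98 to 1.81 at E12.5 and 1.55, 2.99 and 3.20 in adult (2.51-fold, limma adjusted p = 0.0115). Both calls were lost with the slide as a block (adjusted p = 0.164 and 0.208) and without adult replicate 3 (0.85, adjusted p = 0.0816, and 1.01, adjusted p = 0.0647). They were lost too in a limma fit of only the 6 arrays (adjusted p = 0.0609 and 0.0527) and with the slide as a random block (0.0829 and 0.0934). Ccl21b also lost its call without adult replicate 2 (1.07, adjusted p = 0.0528) and with scaling to array medians (adjusted p = 0.0516). Ccl21c differed by 0.64 (limma adjusted p = 0.119), Gm13305 by 0.72 (0.0601) and Ccl28 by 0.21 (0.798), and none passed. Ccl28 was at -0.55 without E12.5 replicate 2 and at -0.18 without adult replicate 3, uncalled in both. Gm13305, whose adult arrays all lay above its E12.5 arrays, was called with quantile normalization (adjusted p = 0.0431), normexp correction (0.0348) and in the authors' value table (0.0339), and was at 0.09 with the slide as a block. Ccl21c was called without E12.5 replicate 1 (0.96, adjusted p = 0.0246) and without adult replicate 1 (1.04, adjusted p = 0.0111). Ccl21 genes are copies of each other, so their values are not independent.

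The vesicle traffic list had 3 of 4 genes measured, with 1 up, 1 down and 1 not called (median difference -0.01). Of all features, 27.5% were called higher and 25.8% lower, with a median difference of 0.01. Vamp7, a SNARE protein of vesicle fusion, had levels of 5.20, 4.53 and 3.93 at E12.5 and 5.90, 5.75 and 5.51 in adult (2.25-fold, limma adjusted p = 7.66e-03). The groups did not overlap but came close to each other, and the call was lost with the slide as a block (0.29, adjusted p = 0.687) and with scaling to array medians (1.02, adjusted p = 0.0531). Disp1, which releases Hedgehog proteins from cells, fell from between 2.60 and 3.14 to between 1.34 and 1.89 (2.47-fold, limma adjusted p = 1.43e-03, with -1.92 in place of -1.30 once the slide was a block). Mia3, needed to export collagen from the endoplasmic reticulum, differed by -0.01 ± 0.38 (limma adjusted p = 0.992), but by 1.53 (adjusted p = 0.0219) with the slide as a block.

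Of 12 genes in common use as references 8 were measured, of which B2m rose, 3 fell and 4 were not called. Of all features 53.4% were called, 27.5% higher and 25.8% lower. The median difference of the 8 genes was -0.23, against 0.01 over all features. Rpl13a, a protein of the large ribosomal subunit, had levels of 6.83, 6.72 and 6.84 at E12.5 and 4.68, 4.74 and 4.88 in adult. Its arrays were nearly equal inside each stage, and the difference was -2.03 ± 0.23, 4.08-fold lower (limma adjusted p = 5.56e-06, and -2.72 with the slide as a block). Tbp, the TATA-binding protein of transcription initiation, fell from between 2.58 and 3.0 to between 1.89 and 1.97 (1.80-fold, limma adjusted p = 9.03e-03, with -1.62 in place of -0.85 once the slide was a block). Hprt, of purine salvage, was 1.70-fold lower at an adjusted p of 0.0489 in limma, and its arrays at E12.5 (8.12, 7.23 and 7.25) stood only just above those of adult (7.06, 6.52 and 6.72). The call was lost without E12.5 replicate 1 (-0.47, adjusted p = 0.197), adult replicate 2 (-0.64, adjusted p = 0.144) or adult replicate 3 (-0.74, adjusted p = 0.112), with a replicate block (adjusted p = 0.0626), with scaling to array medians (adjusted p = 0.0733), with no filter on dim probes (adjusted p = 0.0966) and in a fit of only the 6 arrays (adjusted p = 0.0894). The difference was -1.63 with the slide as a block (adjusted p = 0.0181), and -1.34 and not called once E17.5 replicate 1 was left out of that fit (adjusted p = 0.0664). Actb (-0.08 ± 0.29), Ppia (0.05 ± 0.27), Gapdh (0.47 ± 0.26) and Gusb (-0.38 ± 0.24) did not pass the test, with limma adjusted p of 0.843, 0.894, 0.145 and 0.203. Gapdh was called without E12.5 replicate 1 (0.67, adjusted p = 0.0448), and Gusb with the slide as a block (-1.20, adjusted p = 0.0113) and with quantile normalization (-0.49, adjusted p = 0.0178). Gapdh was at -0.19 and Ppia at -0.56 with the slide as a block, neither of them called.

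The levels at the stages between are a description of the same arrays, and the steps into and out of E17.5 mix stage with slide, since E17.5 replicates 1 and 2 lay with the earlier stages and replicate 3 with the later ones. For features called higher in adult, the median share of the E12.5-to-adult difference reached was 5.09% at E14.5, 37.5% at E17.5 and 66.8% in neonatal liver. For features called lower it was 10.2%, 36.4% and 58.4%. Over called features well above background on all 6 arrays, the shares at E17.5 were 27.6% and 39.1%. Without E17.5 replicate 1 the E17.5 shares over all called features were 38.6% and 36.7%. Taken alone, E17.5 replicates 1 and 2 gave 37.3% and 24.7% for features called higher and replicate 3, on the other slide, 50.5%. For features called lower the 3 arrays gave 29.2%, 32.6% and 32.5%. With a single E17.5 array on the other slide, array and slide cannot be told apart here, and the part of the slide was not tested.

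The steps from E12.5 to E14.5 and from neonatal to adult each lay within 1 slide. Of the 4 steps, the one from neonatal to adult was the largest in 37.4% of the features called higher and 44.9% of those called lower, and the one from E12.5 to E14.5 in 6.48% and 14.8%. The step from E14.5 to E17.5 was the largest in 28.3% of the features called higher, but in 17.6% of those well above background on all 6 arrays. All 4 steps ran in the direction of the whole difference for 2461 of 9605 features called higher and 1636 of 9007 called lower.

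Single genes followed different courses between the same end points. Tfrc stayed at mean levels of 8.86, 8.58 and 8.16 at E14.5, E17.5 and in neonatal liver, so most of its difference lay after the neonatal stage, and Tuba1b had means of 9.22, 9.14 and 8.59. Without E17.5 replicate 1 their E17.5 means were 8.83 and 9.40. The means at these stages were higher at each step for H2ac18 (3.35, 5.54 and 6.49), B2m (7.67, 8.25 and 8.80) and Gk (-1.36, -0.05 and 1.54). Hmgcs1 had means of 7.34 at E14.5, 7.88 at E17.5 and 5.76 in neonatal liver, the last below its E12.5 mean of 7.01, and 8.86 in adult. Amy2a5 had means of -0.58, 5.56 and 6.03, the last 2 of them above its adult mean of 2.26. Without E17.5 replicate 1 the E17.5 means of H2ac18, B2m, Gk, Hmgcs1 and Amy2a5 were 5.58, 8.46, 0.09, 8.04 and 5.64. The neonatal mean was at least 2-fold past the adult mean for 245 features called higher and 58 called lower.

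**Figure D3:**
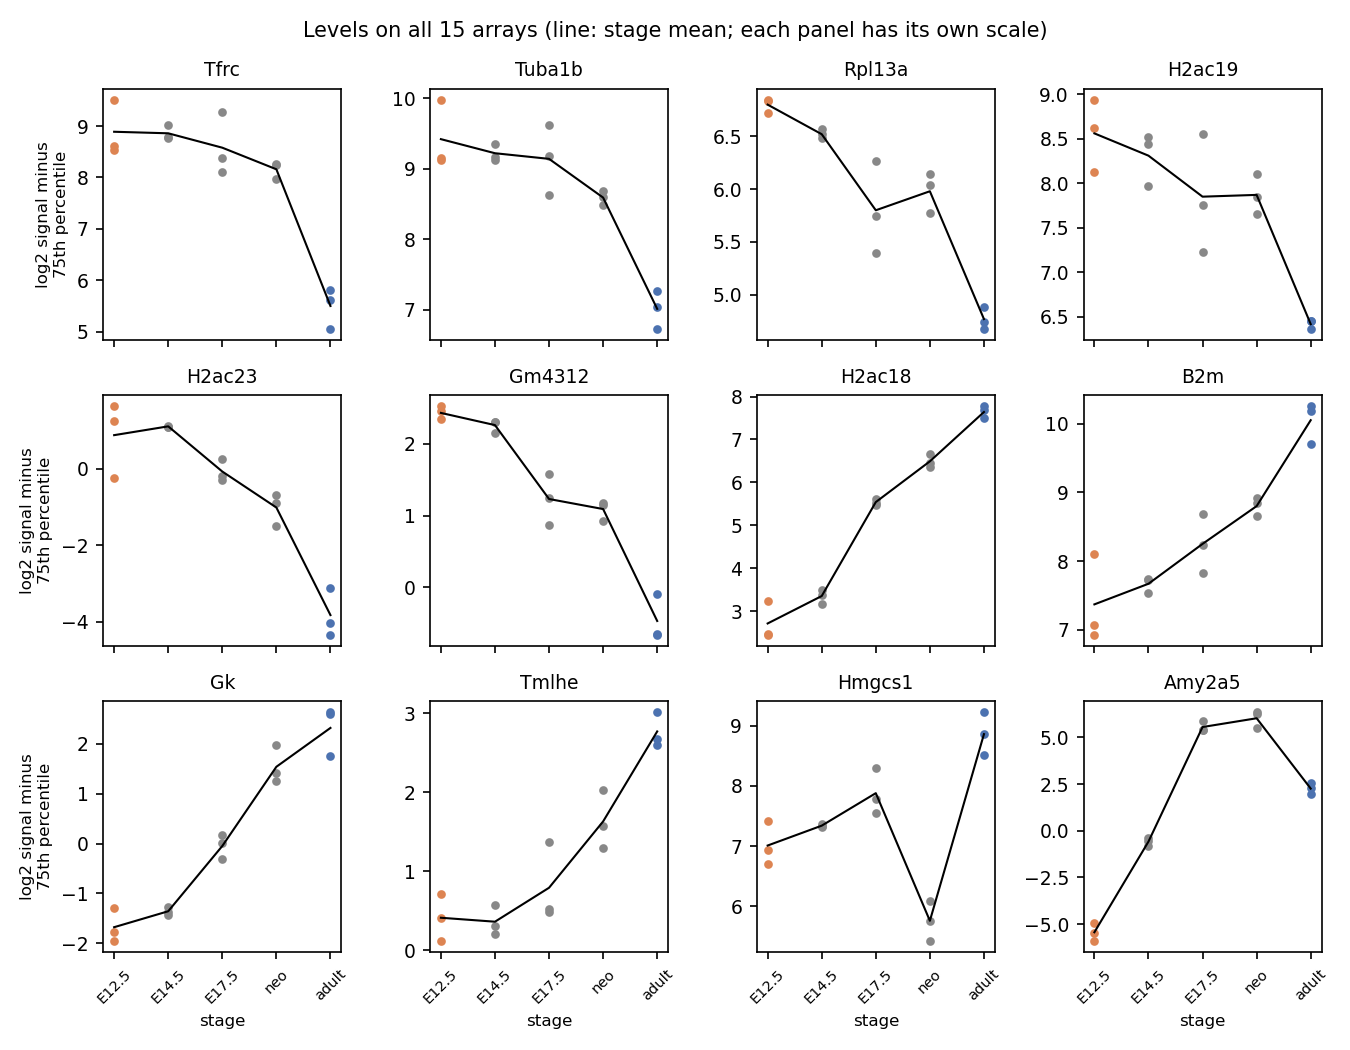
Levels (log2 signal minus the array's 75th percentile) of 12 named genes on all 15 arrays by stage, with a line through the stage means and a separate vertical scale in each panel. The widest step of Tfrc and Tuba1b is from neonatal to adult, the means of H2ac18 and Gk are higher at each stage, and the lowest mean of Hmgcs1 is the neonatal one, 5.76.

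Equal end points did not mean a flat course for every feature. Among features well above background on all 6 arrays, 8828 were not called and differed by less than 0.5 log2 units between E12.5 and adult. The neonatal mean lay at least 2-fold above both end points for 258 of these and at least 2-fold below both for 448. For the E17.5 mean the counts were 145 and 182, so most of these features passed neither limit. The counts rest on stage means without a test, and the neonatal arrays shared a slide with adult but not with E12.5.

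Long non-coding RNAs lack an open reading frame of known function, and many are transcribed only in certain cell types. Of 2380 noncoding features tested, 1165 (48.9%) were called, against 53.4% of all features. Of these 698 were higher and 467 lower in adult, a balance that turned to 304 against 332 over features well above background on all 6 arrays and to 358 against 418 in the authors' value table. Their median difference was 0.21, against 0.01 over all features. Of 76 features for coding RefSeq transcripts 44 were called, 19 higher and 25 lower, or 13 and 22 over features well above background on all 6 arrays. The difference in balance from the noncoding features was not tested. Higher calls made up 57.8% of the calls among lincRNA exons (512 of 886), 63.7% among mouse lincRNA probes (65 of 102) and 68.8% among human lincRNA probes (121 of 176), all turning to under 50% over features well above background on all 6 arrays. That smaller set gave 49.1%, 36.4% and 45.7%. In the authors' value table the shares were 46.2%, 38.2% and 50.5%. With normexp background correction they were 63.0%, 71.4% and 73.8%, and with a slide block 67.9%, 92.7% and 95.7%, on 502, 55 and 93 calls. Over all features tested, higher calls made up 51.6% of the calls, and 43.5% over those well above background on all 6 arrays. The share over all features was 42.0% in the authors' value table, 53.5% with normexp correction and 51.8% with a slide block. Of the noncoding features 293 were dim on every E12.5 array and 86 on every adult array. Dim probes and the slide moved with this balance, and their part in it was not tested beyond these settings.

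**Figure D4:**
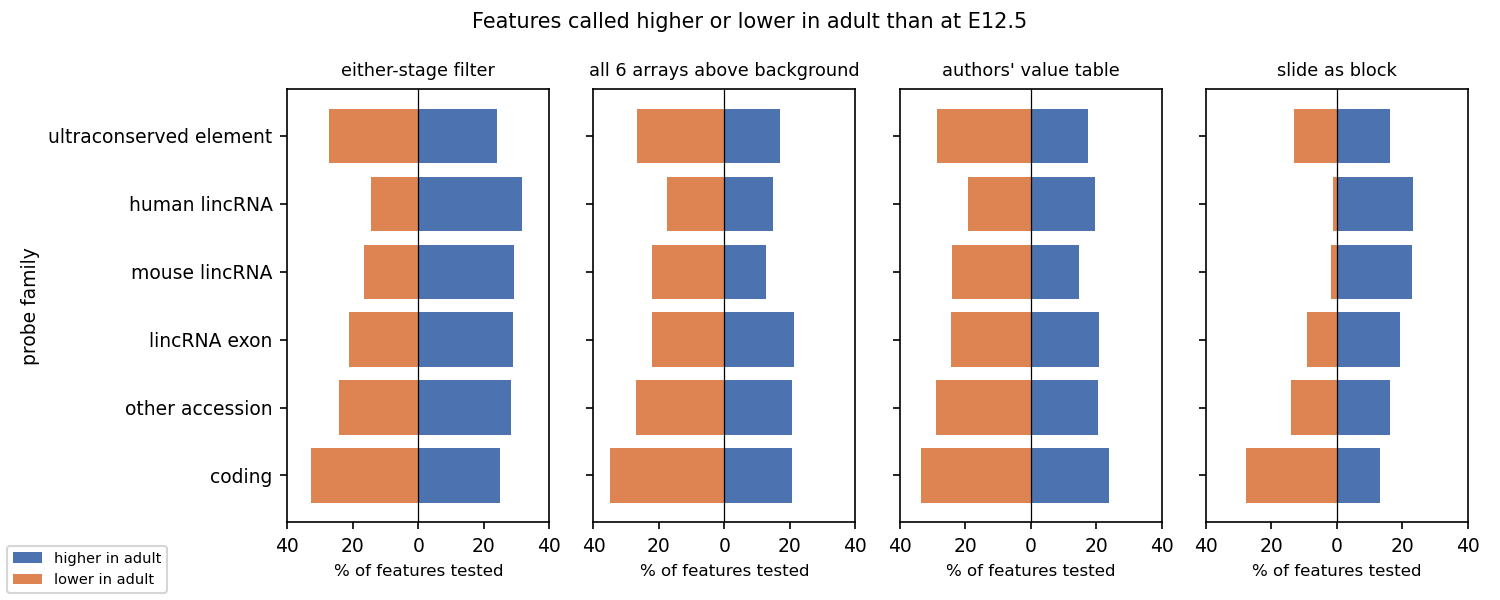
Share of tested features called higher (right bars) or lower (left bars) in adult than at E12.5, for 6 probe families under 4 settings. With the either-stage filter the lincRNA families lean to higher calls, and over features well above background on all 6 arrays they lean to lower calls. Over all features, not drawn, higher calls made up 51.6% and 43.5% of the calls under these settings.

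Among lincRNA exon probes well above background on all 6 arrays, rises reached 230-fold and falls 170-fold. MM9LINCRNAEXON10415- had levels of -1.57, -1.48 and -2.74 at E12.5 and 6.09, 5.69 and 5.96 in adult. The 3 adult arrays lay close together and far above E12.5, and the difference of 7.84 ± 0.39 was 230-fold (limma adjusted p = 1.07e-09), or 6.68 with normexp correction. MM9LINCRNAEXON10517+ went from 4.70, 4.41 and 4.42 to -2.78, -3.01 and -2.91, a difference of -7.41 ± 0.22 (170-fold lower, limma adjusted p = 9.26e-12), or -5.56 with normexp correction. It was still at 3.71 in neonatal liver, so most of its difference lay after the neonatal stage. MM9LINCRNAEXON11530- and MM9LINCRNAEXON10104- rose 29.7-fold and 27.2-fold, and MM9LINCRNAEXON10219- and MM9LINCRNAEXON11765+ fell 48.2-fold and 46.7-fold. The differences of the last 2, -5.59 and -5.55, were -3.94 and -4.23 with normexp correction, and that of MM9LINCRNAEXON10219- was -6.96 with the slide as a block. All 6 were still called with the slide as a block. Among exons dim at 1 stage, MM9LINCRNAEXON10291- was at least 47.1-fold and MM9LINCRNAEXON10838- at least 12.9-fold higher in adult, and MM9LINCRNAEXON11901- and MM9LINCRNAEXON11969- at least 29.5-fold and 26.9-fold lower. The difference of MM9LINCRNAEXON11901- was -5.25, and -4.57 without E12.5 replicate 1.

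Of the mouse lincRNA probes well above background on all 6 arrays, mouselincRNA0453+ rose most, from 0.38, 0.29 and -0.10 to 5.32, 4.64 and 5.14 (28.7-fold, limma adjusted p = 9.41e-10). It had reached a mean of 4.58 at E17.5 (4.47 without E17.5 replicate 1). mouselincRNA1103- fell most among them, from between 2.05 and 2.57 to between -0.82 and -0.30 (7.28-fold, limma adjusted p = 2.05e-07). Both kept their calls with the slide as a block, and mouselincRNA0052- did so too (4.40-fold lower). mouselincRNA0543- (6.96-fold higher), mouselincRNA0722- (6.17-fold higher) and mouselincRNA1494- (4.37-fold lower) did not, with adjusted p of 0.742, 0.998 and 0.0925 in limma. With normexp correction the differences of these 3 were 2.14, 1.41 and -1.42. For mouselincRNA0543-, with E12.5 levels of -1.54, -1.89 and 1.16, the difference of 2.80 was 3.76 without E12.5 replicate 3, and the call was lost without E12.5 replicate 1 (2.41, adjusted p = 0.0676) or 2 (2.23, 0.0793) and without adult replicate 1 (2.61, 0.0574) or 3 (2.65, 0.0557). mouselincRNA1467+ and mouselincRNA1468- were dim on every E12.5 array and at least 9.48-fold and 8.44-fold higher in adult, the first no longer called with the slide as a block (adjusted p = 0.0778). mouselincRNA0295+ and mouselincRNA1244- were dim on every adult array and at least 2.58-fold and 1.61-fold lower. With the slide as a block mouselincRNA1244- was not called (adjusted p = 0.157), nor was it without E12.5 replicate 1 (-1.10, 0.0686), without adult replicate 2 (-1.07, 0.0797) or with normexp correction (-0.12, 0.63), and mouselincRNA0295+ was lost once E17.5 replicate 1 was left out too (adjusted p = 0.0574).

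Probes named for human lincRNAs were mostly dim, with 383 of 1217 tested. Among those well above background on all 6 arrays, humanlincRNA0970- fell most, from 4.67, 3.92 and 3.65 to 0.08, -0.71 and -0.26 (20.9-fold, limma adjusted p = 1.73e-06), and kept its call with the slide as a block (a difference of -3.67 in place of -4.38). humanlincRNA1151+ fell 11.9-fold from levels that spread from 0.31 to 2.96 (limma adjusted p = 3.44e-05). Its difference of -3.58 was -2.52 with normexp correction, -2.91 without E12.5 replicate 1 and -4.24 without E12.5 replicate 2, and its call was lost with the slide as a block once E17.5 replicate 1 was left out (adjusted p = 0.0607). The largest rises in that set, humanlincRNA0965+ (17.4-fold), humanlincRNA2274- (9.70-fold) and humanlincRNA2397+ (7.62-fold), were each lost with the slide as a block, with adjusted p of 0.218, 0.125 and 0.665 in limma. humanlincRNA1016- (5.50-fold lower) was lost too (adjusted p = 0.097). With normexp correction humanlincRNA0965+, humanlincRNA2274- and humanlincRNA1016- were at 3.06, 1.76 and -1.18. Of the probes dim at 1 stage, humanlincRNA0219+ and humanlincRNA0117+ were at least 7.92-fold and 7.34-fold higher in adult, with adjusted p of 0.324 and 0.023 under the block and of 0.357 and 0.0664 once E17.5 replicate 1 was left out too. humanlincRNA2338- and humanlincRNA1808+ were at least 3.56-fold and 3.49-fold lower, and their differences turned to 0.74 and 0.13 with the slide as a block (adjusted p = 0.373 and 0.925).

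Ultraconserved elements are stretches of the genome identical between human, mouse and rat, some of which are transcribed, and the array carried a probe for each strand of 481 of them. Of 298 probes tested 153 (51.3%) were called, against 53.4% of all features. Of these 72 were higher and 81 lower in adult, against 27.5% and 25.8% of all features. The counts were 34 and 53 over features well above background on all 6 arrays, and 40 and 65 in the authors' value table. They were 67 and 86 with quantile normalization and 63 and 89 with scaling to array medians. Over all features lower calls also led under these settings. Higher calls led with normexp background correction (72 and 64), a slide block (48 and 39) and a random slide block (52 and 47). They also led without E12.5 replicate 1 (79 and 76). uc.136+ fell from 3.92, 3.69 and 3.09 to -0.35, -0.33 and -0.42 (15.2-fold, limma adjusted p = 2.42e-08), with adult arrays that were nearly equal. uc.355+ and uc.97+ fell 11.5-fold and 5.45-fold. The difference of uc.355+ was -3.52, and -2.17 with the slide as a block, and that of uc.97+ was -2.45, and -1.76 with normexp correction. uc.188- rose from between 2.85 and 3.56 to between 5.54 and 6.06 (6.19-fold, limma adjusted p = 2.38e-06), with its highest stage in adult after 5.17 at E17.5 (5.36 without E17.5 replicate 1) and 4.02 in neonatal liver. These 4 kept their calls with the slide as a block. uc.18- (24.9-fold higher) and uc.460- (8.49-fold higher) did not (adjusted p = 0.0876 and 0.368 in limma), and for uc.460- E12.5 replicate 1 at 3.24 lay inside the adult range. The difference of uc.460- was 3.09, against 4.25 without that array and 2.49 without E12.5 replicate 2, and that of uc.18- was 4.64, against 5.30 without adult replicate 2 and 3.19 with normexp correction. uc.83+ and uc.30+ were dim on every E12.5 array and at least 3.86 and 3.04 log2 units higher, the second not called with the slide as a block once E17.5 replicate 1 was left out (adjusted p = 0.132). uc.468- and uc.195- were dim on every adult array and at least 9.40-fold and 8.23-fold lower.

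Many elements had both strand probes tested, and the differences of the strands are given side by side. Taken singly, 886 of 1771 lincRNA exon probes and 153 of 298 ultraconserved element probes were called. For mouse and human lincRNA probes it was 102 of 223 and 176 of 383. With such shares, unrelated probes would often both be called. Whether the 2 strands of an element were called together more often than unrelated probes was not tested. Among 473 lincRNA exons with both strand probes tested, both were called for 119, of which 54 rose together, 29 fell together and 36 changed in opposite directions, while for 224 a single strand was called. Pearson's r of the differences was 0.22 across these exons, which share arrays and scaling and are not independent. Ultraconserved elements had both strands tested for 62, both called for 14 and opposite directions for 7 (r = 0.00). For mouse lincRNAs the counts were 37, 8 and 4 (r = 0.05), and for human lincRNAs 74, 15 and 6 (r = 0.04). Over exons with both probes well above background on all 6 arrays, 31 of 214 had both called and 6 were opposite (r = 0.23). In the same smaller set r was 0.38 for ultraconserved elements, with 4 of 30 called on both strands and 2 of these opposite. It was 0.04 for 13 mouse lincRNAs and -0.18 for 25 human lincRNAs.

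Pairs were picked as examples after their values were seen. MM9LINCRNAEXON11508 had plus-strand levels of 1.86, 1.81 and 1.66 at E12.5 and 3.27, 2.77 and 3.01 in adult. Its minus strand went from 1.05, 0.61 and -0.40 to -1.83, -2.15 and -1.73. The plus-strand probe rose and the minus-strand probe fell, with differences of 1.24 ± 0.26 and -2.32 ± 0.37 (limma adjusted p = 1.14e-03 and 1.26e-04), and both held with the slide as a block (1.97 and -3.44). It was the 1 opposite lincRNA exon pair of that set that kept both calls with the block. MM9LINCRNAEXON11332 rose by 4.38 on either strand, with plus-strand levels from 2.61 to 3.59 at E12.5 and from 7.08 to 7.55 in adult. On uc.188 the plus strand rose by 2.29 and the minus strand by 2.63.

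**Figure D5:**
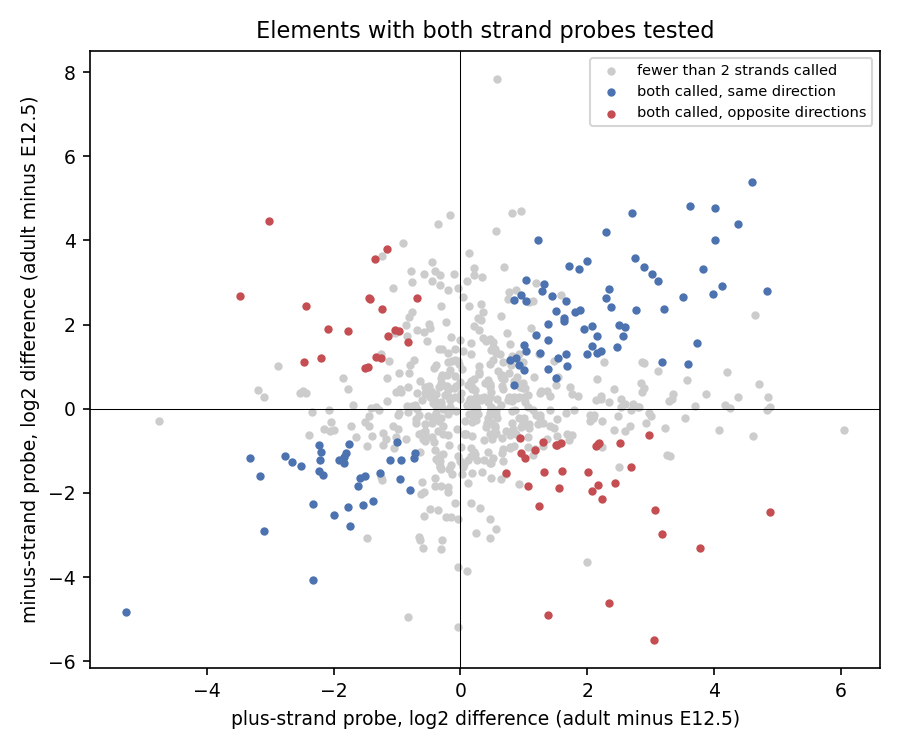
Each point is a lincRNA exon, lincRNA or ultraconserved element with both strand probes tested, at the log2 difference (adult minus E12.5) of its plus-strand probe (horizontal) and minus-strand probe (vertical). Pairs called in opposite directions appear in the upper left and lower right quadrants, 36 of them lincRNA exons.

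Transcripts known by another sequence accession were tested for 671 probes, of which 353 (52.6%) were called, against 53.4% of all features. Of these 191 were higher and 162 lower. The balance turned to 177 against 185 with quantile normalization and to 160 against 173 with scaling to array medians. In the authors' value table it was 108 against 152. Over all features the share of higher calls also turned, from 51.6% to 47.5%, 46.3% and 42.0% under these 3 settings. ENSMUST00000121460 had the largest rise of these probes well above background on all 6 arrays, from -1.37, -1.78 and -1.54 to 10.09, 9.76 and 10.39 (limma adjusted p = 7.93e-12). It was near -2.15 in neonatal liver, so the whole difference of 11.64 ± 0.34 lay after the neonatal stage. The difference was 13.07 with the slide as a block and 10.73 with normexp correction. ENSMUST00000168749 fell from between 8.13 and 9.13 to between 3.40 and 3.95 (29.0-fold, limma adjusted p = 4.67e-09) and had stayed at 8.12 in neonatal liver. AK154456 rose 18.9-fold (a difference of 4.24, and 3.60 with the slide as a block), and BX521937 and AV464199 fell 17.1-fold and 15-fold. Their differences of -4.09 and -3.91 were -4.84 and -3.02 with the slide as a block and -2.61 and -2.83 with normexp correction. CF728761 rose 18.1-fold on adult levels of 3.57, 0.74 and 4.23. Its difference of 4.18 was 3.26 with normexp correction, 5.23 without adult replicate 2 and 3.49 without adult replicate 3, and it was not called with the slide as a block (adjusted p = 0.476 in limma). AA189272 and AK007918 were dim on every E12.5 array and at least 37.6-fold and 18.7-fold higher. AV008781 and ENSMUST00000143382 were dim on every adult array and at least 7.65-fold and 4.72-fold lower, the last not called with the slide as a block (adjusted p = 0.241). The reference tables did not name these accessions.

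Over features well above background on all 6 arrays, the extremes of the comparison lay among probes known by the maker's identifier alone. ASMM9PARTA049978 rose from -2.33, -2.38 and -2.16 to 10.05, 9.75 and 10.19, a difference of 12.29 ± 0.25 (limma adjusted p = 6.06e-13). ASMM9PARTA011898 rose by 11.69 ± 0.53. Both were at or below -0.35 in neonatal liver. ASMM9PARTA028001 fell from 9.89, 8.94 and 9.18 to -0.62, -1.17 and -0.82, a difference of -10.21 ± 0.31 (limma adjusted p = 1.13e-11). It declined stage by stage, through mean levels of 7.43, 4.29 (4.22 without E17.5 replicate 1) and 0.86. ASMM9PARTA015344 fell by 9.48 on the log2 scale and was still at 4.63 in neonatal liver. In the order given, the differences of the 4 probes were 11.01, 10.25, -9.50 and -7.62 with normexp correction. ASMM9PARTA049978, ASMM9PARTA011898 and ASMM9PARTA015344 were at 12.90, 10.34 and -10.21 with the slide as a block.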

How the data were processed

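The 15 arrays, 3 for each of 5 stages, were grouped by their titles. Per the file headers, the deposited scanner files hold spot intensity in 1 colour, written by Agilent Feature Extraction 11.0.1.1 (10.7.3.1 in the submitters' processing notes). The software had already subtracted background. It had detrended adult replicates 1 and 3, the neonatal arrays and E17.5 replicate 3 multiplicatively, and had set dim spots to a common lowest value on the other arrays. The authors' value table holds log2 values for 29158 probes on a scale that the sources used here do not state. Its order within each array matched the scanner signals (Spearman's rho of 1.0 to 4 decimals), its column medians lay between 7.80 and 7.89, and it was used only as an alternative.

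The processed signals were averaged over spots of a probe without outlier flags, put on the log2 scale and reduced by each array's 75th percentile over noncontrol probes. A named gene with several probes was represented by its brightest, which concerned 3 genes. No spot of the 6 arrays was saturated. Missing values, present in 223 tested features, were left out of the fit. A mean per stage was fitted over all 15 arrays with limma 3.58.1 (R 4.3.3, lmFit and eBayes, two-sided), and the procedure was tested on simulated data. Of 123 RefSeq accessions on the array 116 were matched to 112 symbols in the reference tables. The number of arrays limits the precision of every value. The choice of members and gene lists was made with earlier results of these data known, and no list is independent evidence. Genes were named when called, with the 3 arrays of a stage clear of the other, up to 12 in each direction by size, together with every measured member of 10 lists. In each probe family the 3 largest rises and falls on all 6 arrays were named (2 for maker identifiers), and the 2 largest bounds in each direction. The 20 alternatives changed the scaling, background correction, filter, arrays, slide or replicate block, 1 of them added after the data were seen.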

Additional observations from a re-analysis of the deposited data

How the results depend on the processing

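Each alternative changed a single choice, except the slide block without E17.5 replicate 1, which was added after the data were seen, as were the E17.5 means without that array. With the slide as a fixed block the calls were 11910 in all, 650 noncoding, 502 lincRNA exon, 55 mouse lincRNA, 93 human lincRNA, 87 ultraconserved and 204 other accession probes. Leaving E17.5 replicate 1 out of that fit gave 10014, 29 coding, 547, 424, 43, 79, 77 and 165 in the same order. With the slide as a random block (consensus correlation 0.44) 711 noncoding, 544 lincRNA exon, 67 mouse, 100 human and 99 ultraconserved probes were called. Over features well above background on all 6 arrays, with fewer features tested, the calls were 636 noncoding, 521 lincRNA exon, 44 mouse, 70 human, 87 ultraconserved and 229 other accession probes. The authors' value table, also with fewer probes, gave 776 noncoding, 55 mouse and 101 human. All other counts stayed within 1.5 times of those reported.

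The differences of Vmn1r135 (0.34 and 0.49 without E17.5 replicate 1), Mia3 (1.53 and 1.57), humanlincRNA1808+ (0.13 and 0.41) and humanlincRNA2338- (0.74 and 1.25) changed sign with the slide as a fixed block. That block sets E17.5 replicate 3 against the mean of replicates 1 and 2, or against replicate 2 alone once replicate 1 was left out. Whether the slide or these single arrays moved the values was not tested. Among the 94 named features, 1704 of the values under alternatives kept direction and side of the threshold or stayed uncalled, 92 lost a call, 12 gained 1 and 8 changed sign with a call before or after. The values counted as kept include 18 of 5 uncalled genes (Actb, Ccl28, Gapdh, Mia3 and Ppia) that changed sign and stayed uncalled.

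Leaving out each array in turn gave 15877 to 18340 calls in all, 35 to 45 coding, 967 to 1095 noncoding, 741 to 833 lincRNA exon, 79 to 98 mouse, 146 to 167 human, 126 to 155 ultraconserved and 297 to 342 other accession probes. The median difference over all features was 0.01, and it was -0.15 with scaling to array medians, -0.17 in the authors' value table, 0.17 with the slide as a fixed block and 0.12 as a random block. Whether arrays of the same replicate number belong together was not tested beyond the values here. Deviations of same-numbered arrays correlated at 0.48, 0.26 and 0.07, and those of arrays with different numbers at -0.42 to 0.27. E12.5 replicate 3 correlated best with adult replicate 2 (0.27), and the fit with a replicate block gave 18815 calls, against 18612. Normexp correction used the median spot signal and median background, since the files hold no mean signal column. Dim probes limit what can be said: the median SE was 0.47 in the dimmest of 4 equal groups of features and 0.28 in the brightest.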
